A study of Mus musculus with 35 samples.

Results

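The vacuolar H+-ATPase (V-ATPase) is the proton pump that acidifies lysosomes, and 10 of its subunits and accessory proteins are described here in mouse aorta. They were chosen by name, with earlier results of these data known, as an inducible isoform, Atp6v0d2, set beside other subunits and accessory proteins. All 10 symbols were found among the 14174 genes of the deposited table, and all 10 passed the filter on low values that left 14157 genes for testing. The series holds 35 aortas, 1 RNA library each, from C57BL/6 mice in 12 groups. EKO/hA-I mice lack apolipoprotein E and also overexpress human apoA-I, a protein carried by high-density lipoprotein. EKO mice lack apolipoprotein E alone and are prone to atherosclerosis, and wild-type (WT) mice carry neither change. The promoter that drives the human apoA-I transgene is not given in the sources used here. From 8 weeks of age the mice ate a Western diet (WD) or chow for 22 or 6 weeks, so the aortas were taken at 30 or 14 weeks of age. The number of libraries is 2 for EKO/hA-I after 6 weeks of chow and 3 for every other group. The vessels were cut from root to iliac bifurcation after perfusion, with the surrounding fat removed. Transcripts of the brown adipocyte gene Ucp1 were nonetheless present in every library, at normalised read counts of 603 to 9750.

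The pump has a cytosolic V1 sector, in which alternating A and B subunits hydrolyse ATP, and a membrane V0 sector, in which a ring of c subunits turns against the a subunit to carry protons. A central stalk joins them and rests on the ring through the d subunit. Several subunits have isoforms. The d1, a1 and B2 isoforms occur in most cells, while d2 and a3 (encoded by Tcirg1) are prominent in osteoclasts, which acidify bone through a V-ATPase at the cell surface, and both are also found in macrophages. In macrophages of atherosclerotic lesions the pump keeps the lysosome acid enough for the hydrolases that break down lipoproteins taken up by the cell. Genes of the pump and of other lysosomal proteins are known targets of the transcription factor TFEB and its relatives, which bind the palindrome TCACGTGA, called the CLEAR core.

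Promoters are shown because 2 of the members carry that palindrome close to the transcription start. RefSeq promoter windows of 300 bases on GRCm38.p6 were found for 7 of the 10 members. Of their 11 windows, 2 hold TCACGTGA, those of Atp6v0d1 (chr8:105566015-105566314, minus strand) and Atp6v1a (chr16:44139210-44139509, minus strand). They are given 5′ to 3′ with TCACGTGA in capitals:
Atp6v0d1: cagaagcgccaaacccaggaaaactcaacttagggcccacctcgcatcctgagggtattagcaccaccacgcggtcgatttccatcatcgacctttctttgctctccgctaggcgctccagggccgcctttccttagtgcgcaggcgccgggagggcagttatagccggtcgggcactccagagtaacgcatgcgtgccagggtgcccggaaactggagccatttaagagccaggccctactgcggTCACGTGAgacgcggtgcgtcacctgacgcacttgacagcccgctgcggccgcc
Atp6v1a: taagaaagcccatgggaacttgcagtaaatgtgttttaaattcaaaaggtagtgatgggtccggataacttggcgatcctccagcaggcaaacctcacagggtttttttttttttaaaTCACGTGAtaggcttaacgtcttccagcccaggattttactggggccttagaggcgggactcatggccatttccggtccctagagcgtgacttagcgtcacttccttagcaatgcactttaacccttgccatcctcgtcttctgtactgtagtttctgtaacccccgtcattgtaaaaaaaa
The CACGTG within it starts 3 bases before the annotated start of Atp6v0d1 (position -3) and at position -131 of Atp6v1a. TCACGTGA is held by 0.97% of all 32851 RefSeq promoters and by 1.66% of the 13773 promoters of genes measured here. CACGTG, which lies inside TCACGTGA, was found in the same 2 members and in 9.37% of promoters of genes measured here. The AP-1 motif TGANTCA was found in 1 member, Atp6v0a1, and in 5.5% of those promoters. Both strands were searched. A match describes these letters and is not evidence of binding, and the tested differences of the 2 genes with TCACGTGA are given with the other members.

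Levels are normalised read counts as deposited. Between 6850000 and 25330000 reads (median 15050000) stood behind a library, a depth worked out from the step size of its low values, so 1 read was worth 0.0394 to 0.1518 on this scale. Apoe, the targeted gene, ranged from 5.37 to 29.7 in EKO/hA-I and EKO aortas and from 416 to 1280 in WT aortas. WT WD 22 weeks replicate 3 is WT by its title and EKO by its genotype tag, its Apoe level was 540, and it is kept as WT. A total of 12 of the 35 libraries had no appreciable Y-linked transcripts, which in mice marks females. The group of EKO/hA-I after 22 weeks of chow had 0 such libraries, that of EKO after 22 weeks of chow had 2, and each other group had 1. EKO/hA-I chow 6 weeks replicate 2 and EKO chow 6 weeks replicate 1 stood apart in the summed level of 10 sympathetic nerve markers (2580 and 2320, against at most 884 in any other library). The labels do not say that same-numbered animals were paired. Differences are log2 fold changes ± SE of the value plus 1 from a limma fit of all 12 groups, with p adjusted by Benjamini-Hochberg over the 14157 genes and a threshold of 0.05 for a call. These p-values measure the spread between the libraries of these animals.

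Atp6v0d2, the d2 stalk isoform, was highest in EKO aortas in each of the 4 combinations of diet and time, by group mean, and its level differed between them. In WT aortas it stayed at or below 2.10 on chow and reached 10.1 in 1 library on WD, above all 3 EKO libraries after 6 weeks of chow. Its levels after 22 weeks of WD were 1.01, 9.04 and 12.2 in EKO/hA-I aortas, 270, 166 and 335 in EKO aortas, and 0.851, 7.15 and 0.869 in WT aortas. The lowest EKO library was above every library of the other groups of the study. After 22 weeks of chow the levels were 0.584, 0.884 and 1.37 in EKO/hA-I aortas, 23.3, 23.1 and 32.3 in EKO aortas, and 0.935, 2.10 and 0.513 in WT aortas. Here too the EKO range stood clear of both other genotypes. After 6 weeks of WD they were 28.9, 4.05 and 5.95 in EKO/hA-I aortas, 49.6, 17.7 and 20.4 in EKO aortas, and 1.82, 0.415 and 10.1 in WT aortas. At this time 1 EKO/hA-I library fell inside the EKO range. After 6 weeks of chow they were 1.38 and 1.26 in EKO/hA-I aortas, 3.69, 4.11 and 3.48 in EKO aortas, and 0.856, 0.531 and 0.669 in WT aortas. The 3 genotypes did not overlap at this time, with EKO the highest and WT the lowest.

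**Figure D1:**
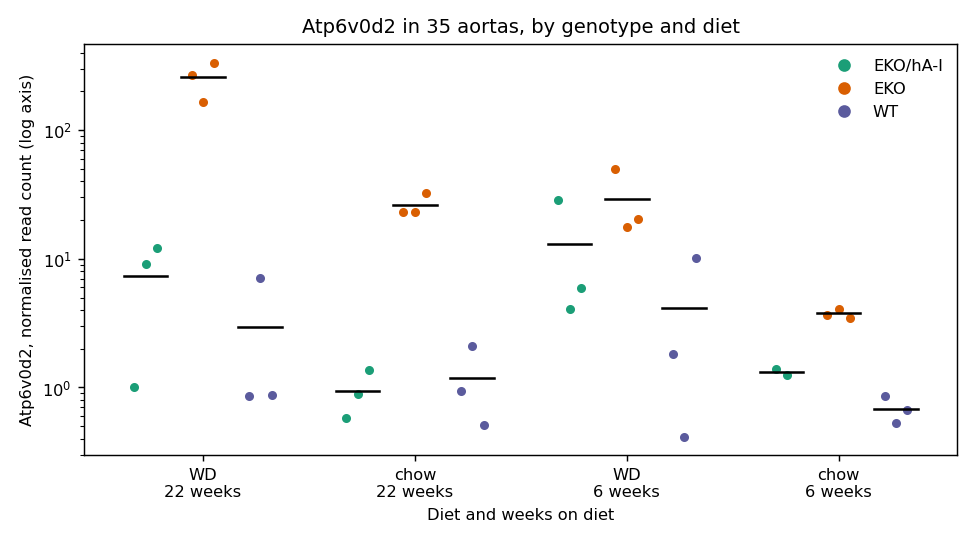
Atp6v0d2 in each of 35 aortas (normalised read count, log axis) by diet, weeks on diet and genotype, with points for libraries and bars for group means. The 3 EKO libraries after 22 weeks of WD lie between 166 and 335, above all others, and the EKO groups after 22 weeks of chow (23.1 to 32.3) and after 6 weeks of WD (17.7 to 49.6) come next.

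The difference between EKO and WT in Atp6v0d2 passed the test in 3 of 4 conditions. It was 6.35 ± 0.69 after 22 weeks of WD (adjusted p 8.64e-08), 3.69 ± 0.69 after 22 weeks of chow (adjusted p 0.000999) and 2.95 ± 0.69 after 6 weeks of WD (adjusted p 0.014). After 6 weeks of chow it was 1.5 ± 0.69 and did not pass (adjusted p 0.183). The value after 6 weeks of WD rested on single libraries: it was 2.78 without WT replicate 1 (adjusted p 0.0868), 2.28 without WT replicate 2 (0.0784) and 2.50 without EKO replicate 1 (0.12). Since WT levels lay near 1, the fitted value depends on the amount added before the log, and after 22 weeks of WD it was 7.03 with 0.1 and 5.07 with 5 in place of 1. Leaving out WT WD 22 weeks replicate 2, the 1 WT library at 7.15, gave 7.06, and leaving out the library with the conflicting genotype tag gave 5.99.

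In EKO/hA-I against EKO aortas Atp6v0d2 was lower at 22 weeks on both diets, with differences of -5.27 ± 0.69 on WD (adjusted p 3.64e-06) and -3.81 ± 0.69 on chow (adjusted p 0.000676). On WD the value was -4.42 without EKO/hA-I replicate 1, which had the lowest level of that group. At 6 weeks the differences were -1.43 ± 0.69 on WD (adjusted p 0.943) and -1.04 ± 0.77 on chow (adjusted p 0.536), with 3 and 2 EKO/hA-I libraries against 3 EKO libraries. In order of mean log2 level Atp6v0d2 ran from EKO WD 22 weeks (257 ± 85.7, SD, n = 3) through EKO WD 6 weeks (29.2 ± 17.7), EKO chow 22 weeks (26.2 ± 5.21), EKO/hA-I WD 6 weeks (12.9 ± 13.8) and EKO/hA-I WD 22 weeks (7.43 ± 5.79) to WT chow 6 weeks (0.685 ± 0.163). Only the step from the highest group to the next was free of overlap between neighbouring groups.

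All 10 members rose in EKO against WT aortas after 22 weeks of WD, and in each the EKO and WT ranges did not overlap. In that comparison 14.8% of all tested genes were called higher, and 23.7% had ranges apart and higher. The members and marker lists were chosen with earlier results of these data known, so counts beside these shares are not an independent test. The members' median difference was 1.02 on the log2 scale, against -0.0066 over all tested genes. In bulk aorta, more cells of a type and more RNA per cell cannot be told apart. Macrophage markers moved with the members: 13 of 14 rose and 0 fell, with a median of 3.09, and their summed level was 6910 to 9810 in EKO and 499 to 894 in WT aortas. Cd68, a lysosomal membrane protein of macrophages, rose by 4.77 and C1qb, a chain of complement C1q, by 3.85, and Cd163 was the 1 marker that did not pass. The part of macrophages in the members' differences was not tested. Fibroblast marker sums were 8990 to 12300 in EKO and 4650 to 6530 in WT aortas (2 of 8 genes rose), and endothelial sums were 2230 to 2410 in EKO and 1230 to 1510 in WT aortas (3 of 8 rose). Smooth muscle sums were 5830 to 9860 in EKO and 15300 to 25200 in WT aortas (3 of 8 fell). Of 7 neutrophil markers 2 rose and of 6 mast cell markers 1 fell, and 0 of 10 skeletal muscle, 8 cardiac muscle, 9 brown adipocyte, 10 nerve and 8 lymphocyte markers were called (limma). The part of these cells in the members' differences was not tested either. Over all genes 7.20% were called lower in this comparison.

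Among the membrane-sector members, the a3 isoform Tcirg1 rose the most after Atp6v0d2. Its levels were 254, 241 and 345 in EKO and 58.0, 66.8 and 55.5 in WT aortas, a difference of 2.19 ± 0.20 (adjusted p 5.86e-09). Atp6v0c, the c subunit of the proton-carrying ring, stood at 369, 386 and 581 in EKO and at 155, 168 and 160 in WT aortas, 1.43 ± 0.18 higher (adjusted p 8.26e-07). Atp6v0c shares 394 of its 3408 36-base sequences (11.6%) with the pseudogene Atp6v0c-ps2, which has 430 in all. The row of the pseudogene did not exceed 7.18 in any library. Reads from the shared stretch cannot be assigned by sequence, so the part of the pseudogene in the Atp6v0c level was not tested. The d1 and a1 isoforms of the same subunits had smaller differences than d2 and a3. Atp6v0a1 (a1) had 167, 180 and 222 in EKO and 86.5, 102 and 103 in WT aortas, a difference of 0.95 ± 0.16 (adjusted p 5.8e-05). Atp6v0d1 (d1) had 104, 86.2 and 115 in EKO and 58.5, 62.4 and 57.8 in WT aortas, a difference of 0.76 ± 0.12 (adjusted p 1.64e-05). No 36-base sequence was shared between Atp6v0d2 and Atp6v0d1 transcripts or between Tcirg1 and Atp6v0a1 transcripts.

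Of the cytosolic-sector members, Atp6v1b2, the B2 subunit, showed 358, 288 and 388 in EKO and 104, 109 and 87.9 in WT aortas, 1.77 ± 0.34 higher (adjusted p 0.000323). The catalytic A subunit Atp6v1a had 348, 267 and 347 in EKO and 134, 163 and 152 in WT aortas, 1.09 ± 0.16 higher (adjusted p 6.5e-06). Atp6v1h, the regulatory H subunit, moved the least of the 10 members, with 109, 90 and 111 in EKO and 71.7, 66.4 and 71.5 in WT aortas, a difference of 0.55 ± 0.17 (adjusted p 0.0182). Its call was lost without WT replicate 2 (0.52, adjusted p 0.0662), EKO replicate 1 (0.51, 0.0644) or EKO replicate 3 (0.50, 0.0757). The other 9 calls held when any 1 library of either group was left out.

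The accessory proteins have genes on the X chromosome. Atp6ap2, known as the prorenin receptor and needed for pump assembly, had 149, 114 and 147 in EKO and 69.6, 78.2 and 65.0 in WT aortas, 0.93 ± 0.15 higher (adjusted p 3.59e-05). Atp6ap1, or Ac45, a glycoprotein of the membrane sector, had 344, 267 and 355 in EKO and 196, 225 and 194 in WT aortas, 0.64 ± 0.13 higher (adjusted p 0.000461). In both genes every EKO library was above every WT library. Each of these groups held 1 library without Y-linked transcripts, and a term for them in the fit left all 10 members called.

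**Figure D2:**
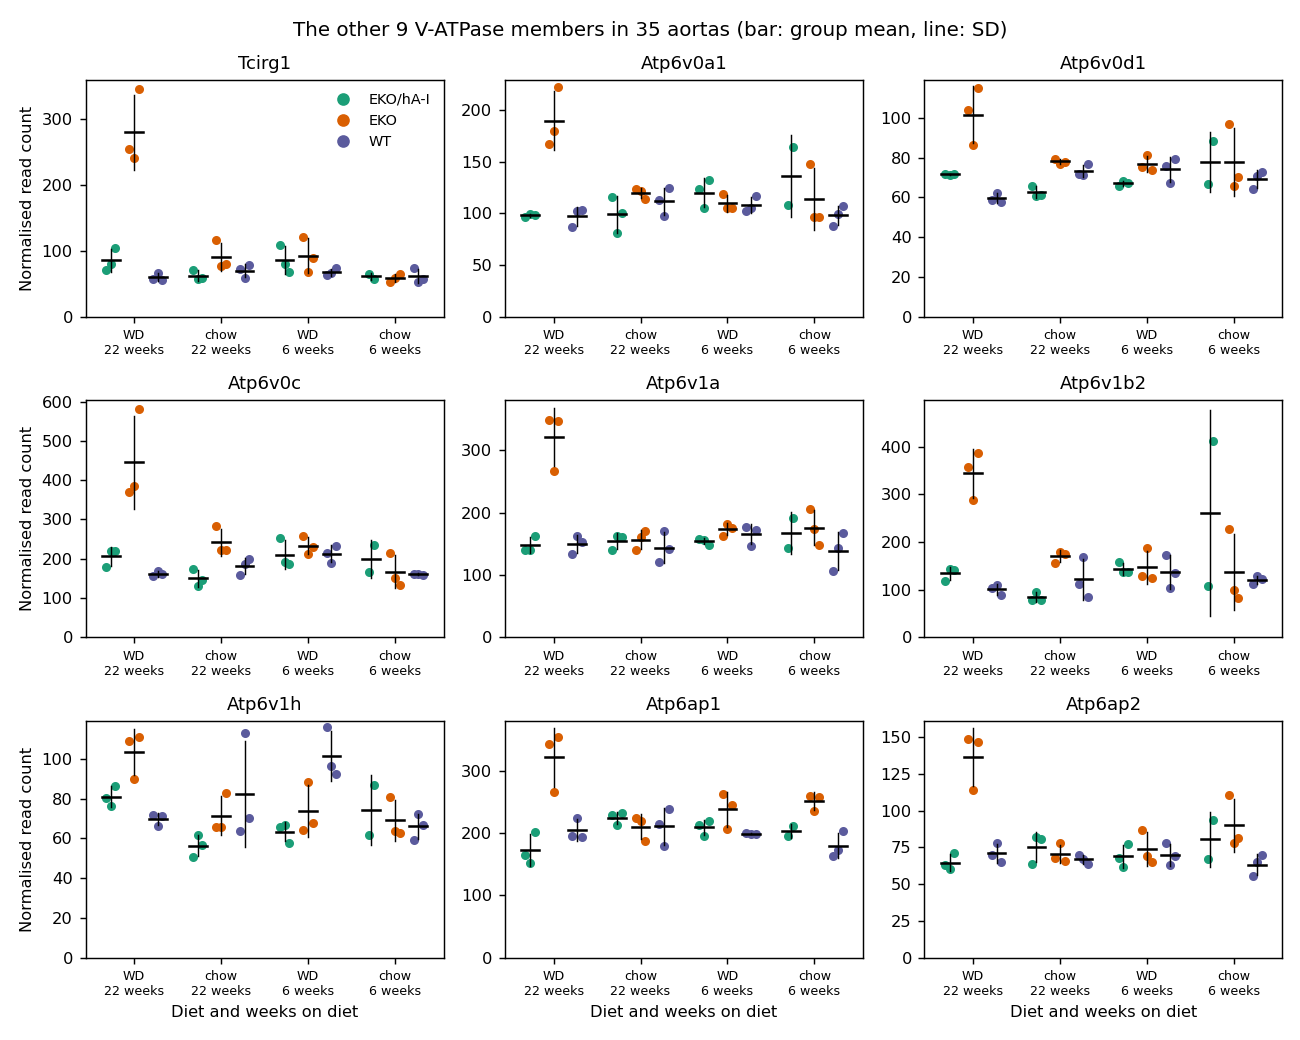
The other 9 members in each of 35 aortas (normalised read count, linear axes from 0) by diet, weeks on diet and genotype; points are libraries, bars group means and lines SD. In every panel the EKO group after 22 weeks of WD has the highest mean. In the Atp6v1h panel that mean (103) barely exceeds that of WT after 6 weeks of WD (102), and the ranges overlap. The high EKO/hA-I point after 6 weeks of chow in the Atp6v1b2 panel (413) is the library richest in nerve markers.

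With human apoA-I added to EKO after 22 weeks of WD, 9 of the 10 members were lower and 0 were higher, and the ranges of EKO/hA-I and EKO aortas did not overlap in any of the 10. The background in this comparison was 12.9% of genes called lower and 22.8% with ranges apart and lower. The limit from the choice of members holds for this background too. This comparison shares its EKO libraries with EKO against WT, so the comparisons are not independent. The members' median difference was -1.07, against -0.017 over all genes. Tcirg1 was at 71.4, 80.8 and 105 in EKO/hA-I aortas, against 254, 241 and 345 in EKO aortas (-1.69 ± 0.20, adjusted p 9.08e-07). Atp6v1b2 was at 118, 143 and 141 in EKO/hA-I aortas, against 358, 288 and 388 in EKO aortas (-1.35 ± 0.34, adjusted p 0.00658). Both genes came near WT levels in EKO/hA-I aortas without reaching into the WT range. Atp6v1a was at 140, 140 and 162 in EKO/hA-I aortas and differed from EKO by -1.11 ± 0.16 (adjusted p 9.92e-06). Atp6v0a1 was at 96.7, 99.6 and 98.5 in EKO/hA-I aortas (-0.93 ± 0.16, adjusted p 0.00013). For these genes all 3 EKO/hA-I libraries lay inside the WT range.

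Atp6v0c was at 178, 220 and 220 in EKO/hA-I aortas (-1.08 ± 0.18 against EKO, adjusted p 8.14e-05). Atp6ap2 was at 62.9, 60 and 70.9 (-1.06 ± 0.15, adjusted p 1.07e-05). Atp6ap1 was at 165, 152 and 202 (-0.89 ± 0.13, adjusted p 1.23e-05). The accessory genes overlapped their WT ranges, with 2 EKO/hA-I libraries of each below the lowest WT library. Atp6v0d1 was at 71.8, 71.4 and 72.0 (-0.49 ± 0.12, adjusted p 0.00367). The Atp6v0d1 call missed the threshold when only the libraries of these groups were fitted (adjusted p 0.0506). Atp6v1h, at 80.5, 76.2 and 86.4, was the member not called (-0.34 ± 0.17, adjusted p 0.159).

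Other tissue markers differed in this comparison as well. Of 14 macrophage markers 12 fell and 1, Cd163, rose, and their summed level was 1220 to 2640 in EKO/hA-I aortas, against 6910 to 9810 in EKO aortas. Their part was not tested. Of 10 skeletal muscle markers 8 rose (median 4.12), with sums of 879 to 3180 in EKO/hA-I aortas, against 25.9 to 119 in EKO aortas, and 3 of 9 brown adipocyte markers rose, with sums of 6600 to 8340 in EKO/hA-I aortas, against 1480 to 5660 in EKO aortas. Of 8 fibroblast markers 3 fell, with sums of 3000 to 5180 in EKO/hA-I aortas, against 8990 to 12300 in EKO aortas. Of 15 mitochondrial ATP synthase genes 6 rose. Over all genes 5.96% were called higher and 12.9% lower in this comparison. With terms for brown adipocyte, skeletal muscle, cardiac muscle and nerve markers in the fit, 9 members were called lower, and the Atp6v0d2 difference was -4.46 (adjusted p 0.00178). The terms hold no macrophage or fibroblast markers. Skeletal muscle and brown adipocyte sums did not overlap between these groups, so this fit cannot fully separate those tissues from genotype. Against WT after 22 weeks of WD, 0 of 10 members were called in EKO/hA-I aortas (limma, 18.0% of genes called, 2 members at an unadjusted p under 0.05), and Tcirg1 was nearest at 0.49 ± 0.20 (adjusted p 0.0854). The test does not show that levels were equal: the ranges did not overlap for 5 members, Tcirg1, Atp6v0c, Atp6v0d1, Atp6v1b2 and Atp6v1h, all of them higher in EKO/hA-I than in WT aortas, at a background of 23.4% of genes with ranges apart and higher.

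**Figure D3:**
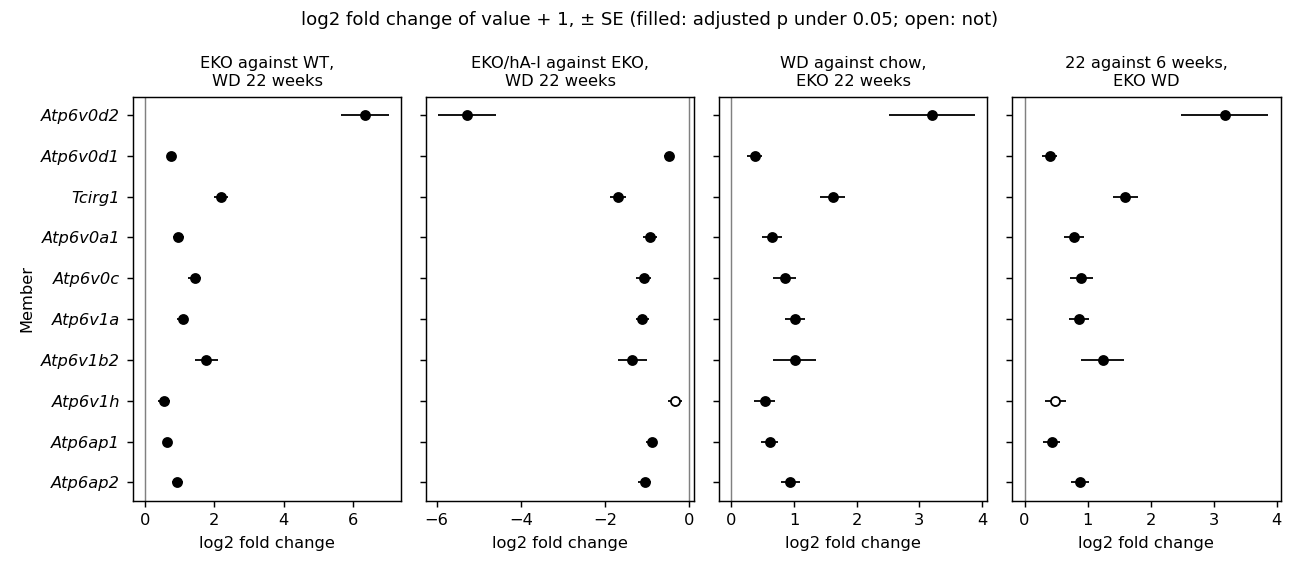
Difference of each member on the log2 scale (value plus 1, points, with bars for SE) in 4 comparisons; filled points passed an adjusted p of 0.05. In each panel Atp6v0d2 has the largest difference and Tcirg1 the second largest, and Atp6v1h is the open point in the comparisons of EKO/hA-I with EKO and of 22 with 6 weeks.

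Within EKO mice most members differed by diet at 22 weeks and by time on WD. On WD against chow at 22 weeks 10 of 10 rose (13.9% of genes called higher), and the ranges did not overlap in any (22.9% of genes with ranges apart and higher). Macrophage marker sums were 6910 to 9810 on WD and 1420 to 2340 on chow (13 of 14 genes rose), fibroblast sums 8990 to 12300 on WD and 3680 to 5610 on chow (4 of 8 rose), and smooth muscle sums 5830 to 9860 on WD and 10900 to 15100 on chow (0 of 8 called). Their part in the members' differences was not tested. The differences ran from 0.37 ± 0.12 for Atp6v0d1 (adjusted p 0.0262) to 1.62 ± 0.20 for Tcirg1 (adjusted p 2.49e-06) and 3.20 ± 0.69 for Atp6v0d2 (adjusted p 0.00162). Calls of 3 members were lost when single libraries were left out. Atp6v0d1 had 0.28 to 0.38 (adjusted p 0.051 to 0.142) without any 1 of the 3 EKO chow libraries or without EKO WD replicate 1 or 3. Atp6v1b2, at 1.01 ± 0.34 in the full fit, had 0.92 to 1.05 (adjusted p 0.0694 to 0.124) without those same libraries. Atp6v1h, at 0.53 ± 0.17, had 0.47 to 0.49 (adjusted p 0.092 to 0.117) without EKO chow replicate 1 or 2 or EKO WD replicate 1 or 3. The other 7 held throughout, and a fit of these groups alone also called 7. In WT aortas WD against chow at 22 weeks gave 0 calls of 10 members (limma, 1.36% of genes called, 1 member at an unadjusted p under 0.05), and the differences lay between -0.30 for Atp6v0d1 and 0.54 for Atp6v0d2. After 6 weeks WD against chow gave 0 calls of 10 members in each genotype. The unadjusted p was under 0.05 for 1 member in EKO/hA-I (limma, 0.00706% of genes called), 3 in EKO (0.0848%) and 2 in WT aortas (1.43%).

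At 22 against 6 weeks in EKO aortas on WD, 9 of 10 members rose (10.5% of genes called higher). Macrophage marker sums were 6910 to 9810 at 22 weeks and 1130 to 1700 at 6 weeks (12 of 14 genes rose), and smooth muscle sums were 5830 to 9860 at 22 weeks and 12200 to 26500 at 6 weeks (4 of 8 fell). Their part in the result was not tested. Over all genes 2.97% were called lower in this contrast. Atp6v0d2 rose by 3.18 ± 0.69 (adjusted p 0.00185), with 270, 166 and 335 at 22 weeks against 49.6, 17.7 and 20.4 at 6 weeks. Tcirg1 rose by 1.60 ± 0.20 (adjusted p 2.46e-06), with 254, 241 and 345 at 22 weeks against 121, 67.9 and 89.5 at 6 weeks. Atp6v0c, Atp6ap2, Atp6v1a and Atp6v0a1 rose by 0.78 to 0.90 and kept their calls without any 1 library. Atp6v1b2 (1.24 ± 0.34) lost its call without EKO WD 6 weeks replicate 1 or 3 or EKO WD 22 weeks replicate 3 (1.14 to 1.16, adjusted p 0.0502 to 0.0704). Atp6v0d1 (0.40 ± 0.12) lost it without replicate 1 or 3 of either time (0.30 to 0.38, adjusted p 0.0573 to 0.14). Atp6ap1 (0.43 ± 0.13) lost it without EKO WD 6 weeks replicate 2 or 3 or EKO WD 22 weeks replicate 1 or 3 (0.33 to 0.45, adjusted p 0.052 to 0.133). Atp6v1h was at 0.49 ± 0.17 (adjusted p 0.0533) and passed without EKO WD 6 weeks replicate 2 or EKO WD 22 weeks replicate 2 (0.63 and 0.59, adjusted p 0.0234 and 0.0426). A fit of these groups alone called 7 members. In EKO/hA-I aortas on WD the same contrast gave 0 calls of 10 (limma, 0.0706% of genes called, 2 members at an unadjusted p under 0.05), with differences from -0.66 for Atp6v0d2 to 0.35 for Atp6v1h. It also gave 0 calls in EKO/hA-I on chow (0.00706% of genes called), in WT on WD (6.68%) and in WT on chow (0.12%), with 3, 3 and 0 members at an unadjusted p under 0.05.

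The differences between these effects were also tested. The effect of EKO against WT was larger after 22 weeks of WD than after 22 weeks of chow for 7 of 10 members (4.99% of genes called in that direction), led by Tcirg1 (1.83 ± 0.28, adjusted p 0.000295), with Atp6v0d2 at 2.66 ± 0.98 (adjusted p 0.107). Without EKO WD 22 weeks replicate 3 this count was 3, and in a fit of these groups alone it was 2. The call of Atp6ap1 (0.64 ± 0.18) was lost without any 1 of 7 libraries (0.55 to 0.63, adjusted p 0.0646 to 0.0938), namely replicates 1 and 3 of WT on chow, of WT on WD and of EKO on WD and replicate 3 of EKO on chow. That of Atp6v0a1 (0.85 ± 0.23) was lost without WT chow replicate 3, WT WD replicate 1, EKO chow replicate 3 or EKO WD replicate 3 (0.73 to 0.81, adjusted p 0.0506 to 0.0765). Those of Atp6v0d1 (0.57, adjusted p 0.051) and Atp6v0c (0.81, 0.0597) were lost without EKO WD replicate 3. That of Atp6ap2 (0.79, 0.0518) was lost without EKO WD replicate 1. Atp6v0d2 passed without WT WD 22 weeks replicate 2 (3.37, adjusted p 0.0448) and with 5 added before the log (2.74, 0.00472). The effect of EKO against WT on WD was larger at 22 than at 6 weeks for 9 of 10 members (5.87% of genes called in that direction), among them Atp6v0d2 (3.40 ± 0.98, adjusted p 0.0298) and Atp6v1h (1.02 ± 0.24, adjusted p 0.00744). Atp6ap1 was the exception (0.39 ± 0.18, adjusted p 0.191). At 6 weeks Atp6v1h had 64.4, 88.6 and 67.9 in EKO and 116, 96.5 and 92.4 in WT aortas, ranges apart with EKO lower, a difference that did not pass (-0.47 ± 0.17, adjusted p 0.0968). The Atp6v1b2 value (1.66 ± 0.48) missed the threshold without any 1 of 8 libraries (1.47 to 1.72, adjusted p 0.0519 to 0.0979): replicates 1 and 3 of EKO after 22 weeks, of EKO after 6 weeks and of WT after 6 weeks, and 2 and 3 of WT after 22 weeks. The Atp6v0d2 value missed the threshold without any 1 of 7 libraries (2.58 to 3.34, adjusted p 0.0548 to 0.0966): replicates 1 and 3 of EKO after 22 weeks, 2 and 3 of EKO after 6 weeks, 1 and 3 of WT after 22 weeks and 3 of WT after 6 weeks. The effect of human apoA-I in EKO on WD was more negative at 22 than at 6 weeks for 7 of 10 members (4.51% of genes called in that direction), from -0.71 ± 0.18 for Atp6ap1 to -3.84 ± 0.98 for Atp6v0d2. Without EKO WD 6 weeks replicate 2, EKO WD 22 weeks replicate 3 or EKO/hA-I WD 22 weeks replicate 1 this last count was 4, and with the 4 tissue terms it was 1. The Atp6v0d2 value was -3.67 to -3.00 (adjusted p 0.0556 to 0.0835) without any 1 of EKO 22 weeks replicate 3, EKO 6 weeks replicate 2 or 3, EKO/hA-I 22 weeks replicate 1 or EKO/hA-I 6 weeks replicate 1. Without any 1 of those same libraries the Atp6v0c value was -0.92 to -0.72 (adjusted p 0.0696 to 0.113). The Atp6ap1 value was -0.69 to -0.62 (adjusted p 0.0536 to 0.0769) without EKO 22 weeks replicate 1 or 3, EKO 6 weeks replicate 2 or EKO/hA-I 22 weeks replicate 1 or 2.

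In the other conditions 1 of the 10 members passed between EKO and WT. After 22 weeks of chow it was Atp6v0d2 (7.35% of genes called higher). Atp6v0c had 282, 222 and 222 in EKO and 158, 187 and 199 in WT aortas, ranges that did not overlap, and did not pass (0.41 ± 0.18, adjusted p 0.12). Macrophage marker sums in this comparison were 1420 to 2340 in EKO and 314 to 502 in WT aortas (12 of 14 genes rose), and 4 of 8 fibroblast markers rose. After 6 weeks of WD it was again Atp6v0d2 (3.94% of genes called higher). There macrophage sums were 1130 to 1700 in EKO and 409 to 752 in WT aortas (5 of 14 rose), and fibroblast sums 6460 to 10100 in EKO and 2100 to 3720 in WT aortas (8 of 8 rose). After 6 weeks of chow the call was Atp6ap1 (2.27% of genes called higher), with 260, 235 and 259 in EKO and 164, 173 and 203 in WT aortas, 0.49 ± 0.13 higher (adjusted p 0.0306). That call was lost without WT replicate 1 (0.42, adjusted p 0.22) or 2 (0.46, 0.109), without EKO replicate 2 (0.53, 0.0605) or 3 (0.47, 0.164), and without the pair of nerve-rich libraries (0.46, 0.0558). Brown adipocyte sums in that comparison were 1620 to 2230 in EKO and 2540 to 6580 in WT aortas, and fibroblast sums 5690 to 11700 in EKO and 3390 to 4170 in WT aortas. In EKO on chow, 22 against 6 weeks gave 3 higher members (13.3% of genes called higher), Atp6v0d2 (2.50 ± 0.69, adjusted p 0.0104), Tcirg1 (0.60 ± 0.20, adjusted p 0.0292) and Atp6v0c (0.56 ± 0.18, adjusted p 0.0237). Several tissue sums were apart between the times. Brown adipocyte sums were 4490 to 8320 at 22 weeks and 1620 to 2230 at 6 weeks, macrophage sums 1420 to 2340 at 22 weeks and 599 to 941 at 6 weeks, and smooth muscle sums 10900 to 15100 at 22 weeks and 24900 to 30900 at 6 weeks. Mitochondrial ATP synthase sums were 8310 to 14000 at 22 weeks and 3620 to 5370 at 6 weeks. Their part in the members' differences was not tested. Of the 3 members, Tcirg1 was not called without any 1 of the 3 EKO chow 6 weeks libraries (0.53 to 0.67, adjusted p 0.0573 to 0.0859) or without EKO chow 22 weeks replicate 1 (0.41, 0.179). Atp6v0c was not called without EKO chow 6 weeks replicate 2 (0.50, 0.0746) or 3 (0.42, 0.155) or EKO chow 22 weeks replicate 1 (0.44, 0.119).

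In EKO/hA-I against EKO after 22 weeks of chow 4 members fell and 0 rose, at a background of 14.9% of genes called lower. Besides Atp6v0d2 they were Atp6v1b2, with 77.2, 95.5 and 78.4 in EKO/hA-I and 156, 179 and 175 in EKO aortas (-1.02 ± 0.34, adjusted p 0.0277), Atp6v0c, with 173, 130 and 146 in EKO/hA-I and 282, 222 and 222 in EKO aortas (-0.69 ± 0.18, adjusted p 0.00673), and Atp6v0d1 (-0.31 ± 0.12, adjusted p 0.045). Brown adipocyte markers moved with them: 6 of 9 fell, and their sums were 1810 to 2240 in EKO/hA-I aortas, against 4490 to 8320 in EKO aortas. Macrophage sums were 629 to 845 in EKO/hA-I aortas, against 1420 to 2340 in EKO aortas (8 of 14 fell). Smooth muscle sums were 21400 to 33000 in EKO/hA-I aortas, against 10900 to 15100 in EKO aortas (2 of 8 rose), and fibroblast sums were 8820 to 13600 in EKO/hA-I aortas, against 3680 to 5610 in EKO aortas (4 of 8 rose). The part of these 3 lists in the members' differences was not tested. Over all genes 13.7% were called higher in this comparison. The 15 mitochondrial ATP synthase genes, the related but distinct rotary enzyme, had 14 lower members. With the 4 tissue terms Atp6v0d2 alone was called (-4.19, adjusted p 0.00701), Atp6v1b2 was at -0.52 (0.338), Atp6v0c at -0.58 (0.108) and Atp6v0d1 at -0.26 (0.227). Brown adipocyte sums did not overlap between these groups, so this fit cannot fully separate that tissue from genotype. With the sex term Atp6v1b2 was at -0.86 (0.0688) and Atp6v0d1 at -0.27 (0.098). Atp6v0d1 was not called without any 1 library (-0.35 to -0.29, adjusted p 0.053 to 0.123), nor was Atp6v1b2 without any 1 EKO library or EKO/hA-I replicate 1 or 3 (-1.08 to -0.96, adjusted p 0.0515 to 0.0863). Tcirg1, at -0.51 ± 0.20 (adjusted p 0.0555), passed when EKO replicate 2 (-0.62, 0.0415) or EKO/hA-I replicate 1 (-0.61, 0.0468) was left out. Against EKO at 6 weeks EKO/hA-I gave 0 calls of 10 members on WD (limma, 0.0706% of genes called) and 0 on chow (0.0777%), with 1 member at an unadjusted p under 0.05 in each.

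In EKO/hA-I on WD against chow at 22 weeks 3 members rose and 1 fell, at a background of 20.7% of genes called higher and 17.5% lower. The levels of Atp6v0d2 were 1.01, 9.04 and 12.2 on WD and 0.584, 0.884 and 1.37 on chow, overlapping at their ends (1.75 ± 0.69, adjusted p 0.048). Atp6v1h (0.52 ± 0.17, adjusted p 0.0181) and Atp6v0c (0.46 ± 0.18, adjusted p 0.0444) also rose, and Atp6ap1 fell by 0.39 ± 0.13 on the log2 scale (adjusted p 0.0197). Skeletal muscle marker sums were 879 to 3180 on WD and 11.8 to 41.8 on chow, and brown adipocyte sums were 6600 to 8340 on WD and 1810 to 2240 on chow. Macrophage sums were 1220 to 2640 on WD and 629 to 845 on chow, smooth muscle sums 4000 to 9630 on WD and 21400 to 33000 on chow, and fibroblast sums 3000 to 5180 on WD and 8820 to 13600 on chow, and the part of these 3 lists was not tested. With the 4 tissue terms 0 of the members were called, and the Atp6ap1 difference was -0.0011. Skeletal muscle and brown adipocyte sums did not overlap between the diets, so this fit cannot fully separate those tissues from diet. Only 1 member was called without any 1 of EKO/hA-I chow replicate 1 or 3 or EKO/hA-I WD replicate 2 or 3, and 2 without EKO/hA-I chow replicate 2.

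The isoform pairs were compared as ratios within libraries. After 22 weeks of WD Atp6v0d2 amounted to 1.4 to 17.0% of Atp6v0d1 in EKO/hA-I aortas, to 192 to 291% in EKO aortas and to 1.46 to 11.5% in WT aortas. It was the more abundant d isoform by count in all 3 libraries of that EKO group and in none of the other 32 libraries. With 1 added to each gene before the ratio was taken, as in the test, the difference in the log2 ratio was 5.59 for EKO against WT and -4.77 for EKO/hA-I against EKO. From the plain ratios, an alternative chosen after seeing the data, it was 6.38 and -5.18. In 3 of the 9 libraries Atp6v0d2 lay near 1. For EKO against WT after 22 weeks of chow it was 3.60 with 1 added and 4.60 from the plain ratios. In EKO aortas the ratio was 29.3 to 41.4% after 22 weeks of chow, 21.8 to 65.8% after 6 weeks of WD and 3.8 to 6.27% after 6 weeks of chow. In EKO/hA-I aortas after 6 weeks of WD it was 5.93 to 43.8%. The groups compared did not overlap, and the exact two-sided permutation test gave p = 0.1 for each of the 5 comparisons of this pair, the smallest that 3 against 3 libraries allow, so none could pass 0.05.

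Tcirg1 after 22 weeks of WD amounted to 73.9 to 107% of Atp6v0a1 in EKO/hA-I aortas, to 134 to 156% in EKO aortas and to 54.0 to 67.0% in WT aortas. The a3 isoform outnumbered a1 in every library of that EKO group. In EKO aortas after 22 weeks of chow the ratio was 63.0 to 94.3%, and in EKO aortas after 6 weeks of WD it was 64.4 to 102%. The log2 difference, again with 1 added, was 1.24 for EKO against WT and -0.76 for EKO/hA-I against EKO after 22 weeks of WD (exact permutation p = 0.1 each, 3 against 3 libraries, the smallest possible). For EKO against WT after 22 weeks of chow it was 0.26, with ranges that overlapped (exact permutation p = 0.2, 3 against 3 libraries).

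**Figure D4:**
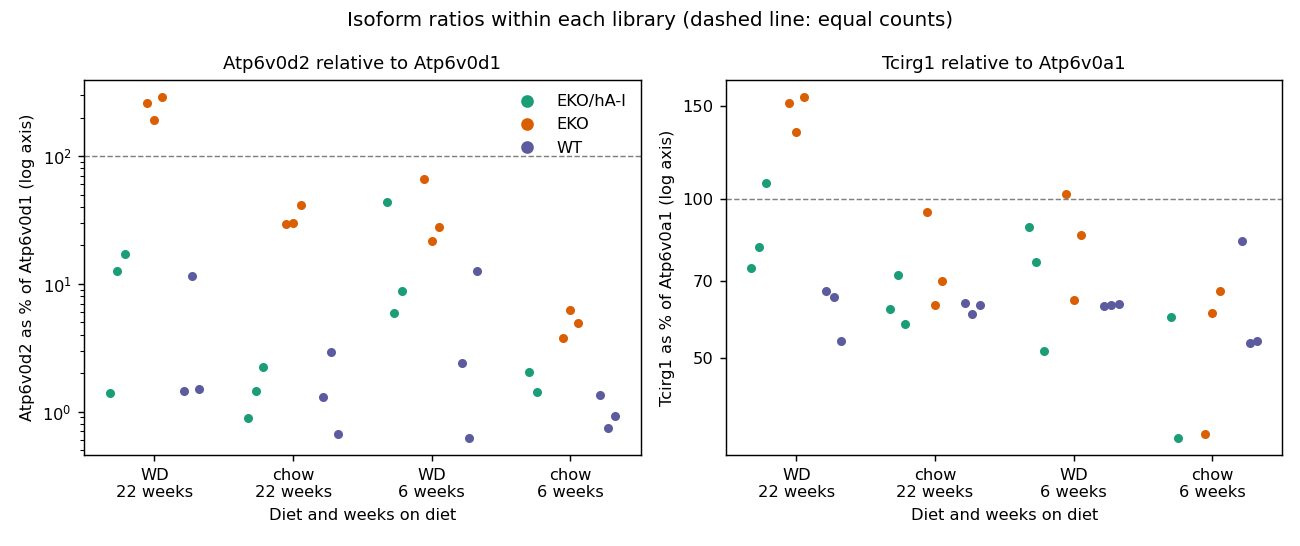
Atp6v0d2 as a percentage of Atp6v0d1 (left) and Tcirg1 as a percentage of Atp6v0a1 (right) in each of 35 aortas, on log axes, by diet, weeks on diet and genotype; the dashed line marks equal counts. Both ratios exceed 100% in all 3 EKO libraries after 22 weeks of WD (192 to 291% and 134 to 156%).

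Counts per gene depend on transcript length, so levels were also compared per kilobase of the longest protein-coding GENCODE transcript. On this scale Atp6v0c had the highest level of the 10 members, at 376 ± 99.7 in EKO and 136 ± 5.47 in WT aortas after 22 weeks of WD (SD, n = 3 each). A pump holds several copies of c per copy of a or d. Atp6v0d2 reached 101 ± 33.8 per kilobase in EKO aortas, place 4 of 10 there, and was last in WT aortas at 1.16 ± 1.43. Atp6v0d1 was at 62.6 ± 9.05 in EKO and 36.6 ± 1.53 in WT aortas. Tcirg1 took place 5 of 10 in EKO aortas at 92.1 ± 18.6 and place 9 in WT aortas at 19.8 ± 1.96. Atp6v1b2 and Atp6v1a, which alternate in the same ring of the pump, were at 122 ± 18.2 and 75.7 ± 11 in EKO and at 35.5 ± 3.86 and 35.3 ± 3.41 in WT aortas.

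The remaining subunits of the pump were looked at as a list of 16 genes, 12 of which were in the table. In EKO against WT after 22 weeks of WD 8 rose and 1 fell, with a median of 0.59, against 14.8% higher and 7.20% lower over all tested genes. Atp6v1c1, the C subunit that holds the sectors together, rose by 1.06 ± 0.16 (114 ± 16.8 in EKO and 53.6 ± 2.11 in WT aortas, SD, n = 3 each, adjusted p 1.15e-05). Atp6v0b, a ring subunit, rose by 0.83 ± 0.11, and the stalk and peripheral subunits Atp6v1e1, Atp6v1g1, Atp6v1d and Atp6v1f by 0.73, 0.63, 0.60 and 0.41. Atp6v0e rose by 0.69 ± 0.13; it and Atp6v0b have CACGTG in their promoter windows, and Atp6v0e has TCACGTGA. Rnasek rose by 0.58. Of the alternative isoforms Atp6v0e2 was lower, at 9.22 ± 2.51 in EKO and 18.7 ± 7.73 in WT aortas (-0.91 ± 0.33, adjusted p 0.0491). Atp6v0a2, Atp6v0a4 and Atp6v1g2 differed by 0.21, 0.0099 and 0.52 without passing. Among the same 12 genes 4 fell in EKO/hA-I against EKO after 22 weeks of WD, Atp6v1c1 (-0.88), Atp6v1g1 (-0.50), Atp6v0b (-0.47) and Rnasek (-0.29), and 0 rose (median -0.28), against 12.9% of all genes lower.

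Of 10 measured genes for assembly and regulation of the pump, 1 rose in EKO against WT after 22 weeks of WD and 0 fell (median 0.060), a share near the 14.8% of all genes called higher. It was Wdr7, which acts with the rabconnectin Dmxl2, at 0.56 ± 0.19 (adjusted p 0.0381). Dmxl2 differed by 0.60 ± 0.25 (adjusted p 0.0825), and the assembly factors Vma21, Tmem199 and Ccdc115 by 0.28, 0.39 and 0.11 without passing. With human apoA-I added, 0 of the 10 were called against EKO after 22 weeks of WD (limma, 18.8% of all genes called), with a median of -0.22.

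Among 12 lysosomal ion channels and exchangers 5 rose and 0 fell in EKO against WT after 22 weeks of WD (14.8% of all genes higher). Clcn7, the chloride-proton exchanger that lets the pump build up acid, was at 151 ± 25.3 in EKO and 62.7 ± 0.913 in WT aortas (1.24 ± 0.13, adjusted p 2.42e-08, n = 3 each, limma). Its partner Ostm1 rose by 0.86 and the cation channels Tpcn2 and Mcoln1 by 1.10 and 0.58. Against EKO after 22 weeks of WD, EKO/hA-I aortas had lower Clcn7 (-1.11), Ostm1 (-0.86) and Tpcn2 (-1.38), and 0 rose (12.9% of all genes lower and 5.96% higher). Of the 4 MiT/TFE transcription factors, Tfec rose by 2.52 ± 0.24 and Mitf and Tfe3 by 0.58 each in EKO against WT (14.8% of all genes higher), and Tfeb did not pass (0.24 ± 0.20, adjusted p 0.451). The differences of Tfec, Mitf and Tfe3 in EKO/hA-I against EKO were -1.85, -0.81 and -0.31, all called (12.9% of all genes lower).

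Since Atp6v0d2 and Tcirg1 are known from osteoclasts, 12 osteoclast genes were looked up, and 7 were in the table. Ctsk, cathepsin K, was at 248 ± 100 in EKO and 40.2 ± 14.5 in WT aortas after 22 weeks of WD (2.57 ± 0.35, adjusted p 2.7e-06, n = 3 each, limma). Acp5, the tartrate-resistant phosphatase, rose by 1.60 ± 0.32, and Nfatc1 by 0.70 ± 0.19. The other 4 were not called (14.8% of all genes higher). Ctsk (-2.98) and Tnfrsf11a (-1.26), which encodes the receptor RANK, fell in EKO/hA-I against EKO after 22 weeks of WD (12.9% of all genes lower). Tnfrsf11a was not among the genes called in EKO against WT. The highest Nfatc1 level of all libraries was 84.8, in EKO/hA-I WD 22 weeks replicate 2.

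By correlation over the 35 libraries, the genes whose log2 level was most like that of Atp6v0d2 were Gpnmb, Mmp12, Clec7a, Lgals3, Stra6l and Itgax (r = 0.98 each), Trem2 (0.97) and Ctss (0.96). With the 3 EKO WD 22 weeks libraries left out these values were 0.92 to 0.97. Tcirg1 had r = 0.87 with Atp6v0d2 and place 112 among the tested genes, and Atp6v0c had r = 0.86 and place 146, while Atp6v1h had r = 0.37. Without EKO WD 22 weeks (32 libraries) Tcirg1 and Atp6v0c stood at 0.73 and 0.71, and the other 7 members at 0.032 to 0.36. For the mean of the 9 members other than Atp6v0d2 the nearest genes were Rhov (0.94), then Cdk18, Fam63a, Ccdc148, Pi4k2a, C77080 and Prss46 (0.91 each) and Rnf149 (0.90), and without EKO WD 22 weeks these fell to 0.51 to 0.75. These correlations are descriptions over libraries that share groups and scaling.

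Members differed in how they ran with the mean level of macrophage markers across the 35 libraries. Correlations were 0.87 for Atp6v0d2, 0.86 for Tcirg1 and 0.75 for Atp6v0c, and 0.25 to 0.64 for the rest. Atp6v1h ran with brown adipocyte markers (r = 0.53), and Atp6ap1 (-0.58) and Atp6ap2 (-0.44) against them. With smooth muscle markers r was -0.62 for both Atp6v1h and Atp6v1b2, and -0.51 for Atp6v0c. Among the 45 pairs of members r lay between 0.14, for Atp6v1h with Atp6ap1, and 0.89, for Atp6v0c with Tcirg1.

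**Figure D5:**
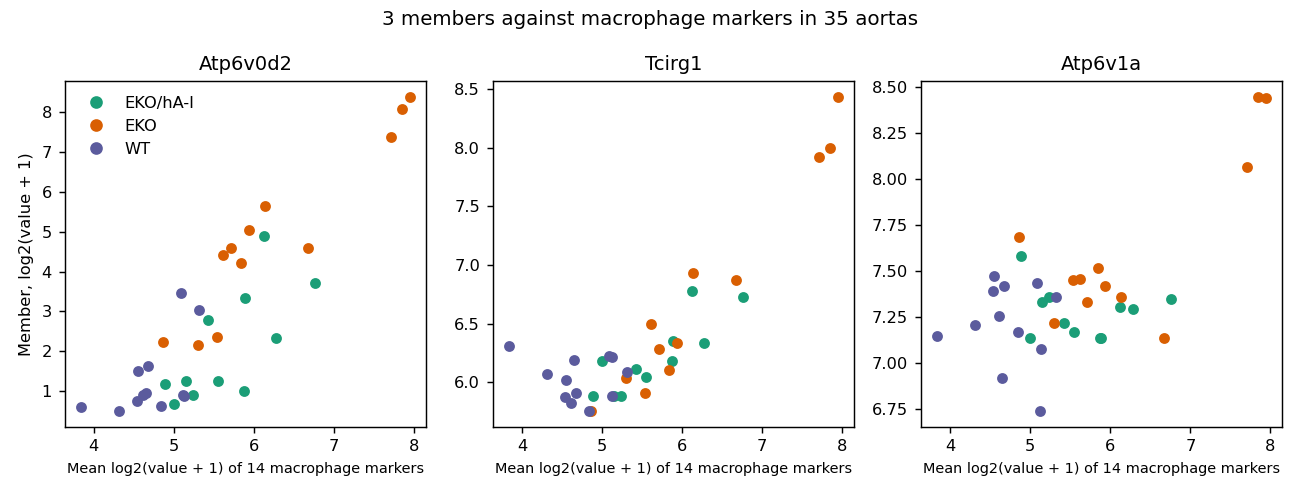
Atp6v0d2, Tcirg1 and Atp6v1a (log2 of value plus 1) against the mean log2 level of 14 macrophage markers in 35 aortas, coloured by genotype. Over all libraries r was 0.87, 0.86 and 0.64, and in the Atp6v1a panel the 3 EKO libraries after 22 weeks of WD stand alone at the upper right.

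Atp6v1b2 had its highest level outside EKO after 22 weeks of WD in the nerve-rich libraries, 413 in EKO/hA-I chow 6 weeks replicate 2 and 228 in EKO chow 6 weeks replicate 1, against 107 in the other EKO/hA-I library and 100 and 81.8 in the other EKO libraries of those groups. Without both, 22 against 6 weeks in EKO on chow was 0.90 for Atp6v1b2 (adjusted p 0.00719), against 0.46 ± 0.34 (adjusted p 0.331) with them. Without EKO/hA-I chow 6 weeks replicate 1, which leaves the nerve-rich library alone in its group and assumes that it varies like the other groups, 22 against 6 weeks in EKO/hA-I on chow was -2.30 for Atp6v1b2 (adjusted p 0.00782), against -1.33 ± 0.38 (adjusted p 0.384) with both.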

How the data were processed

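RNA-seq of 35 mouse aortas was analysed from the table the authors deposited, 1 column per library. The signal values, as the authors deposited them, are not whole numbers and add up to a similar total in each column, and are read here as normalised read counts per gene. The normalisation method is not given in the sources used here. Bowtie 0.12.2, Bowtie2, RSEM, mm8 and mm9 are named in the submitters' processing notes, without roles. Of the values up to 1.5 in a library, 71.6 to 82.1% came out whole to a tolerance of 0.02 reads, too few to recover counts. Column sums ran from 907491.9 to 1137737.0, and the depth inferred from the steps limits precision at low levels.

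Groups followed the sample titles. Genes that reached 1 in 3 or more libraries were kept (14157, with 17 removed), log2(value + 1) was fitted with limma 3.58.1 (R 4.3.3, robust, with an intensity trend) in 1 model of the 12 groups, and 21 comparisons and 3 interactions were read from it, tested on simulated data first. A fold change on this scale understates changes at low levels. Isoform ratios used exact permutation tests (scipy 1.17.1). All 10 members are named, and from each gene list up to 4 genes of smallest p in the comparison described. Cd163 and Tnfrsf11a were named after their values were seen. The members and lists were chosen with earlier results of these data known.

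Same-numbered libraries deviated together with r over 0.1 in every pair only for 22 against 6 weeks. This held in WT on WD (r 0.13 to 0.34), EKO on WD (0.12 to 0.44) and EKO/hA-I on chow (2 pairs, 0.28 to 0.35). It comes from the data, since the labels do not state a pairing. The alternatives tried were fitting only the groups compared, the replicate number as a block, 0.1 or 5 added before the log, no filter, median-ratio rescaling, 4 tissue terms (mean levels of brown adipocyte, skeletal muscle, cardiac muscle and nerve markers), a sex term, and each library left out. Leaving out the pair of nerve-rich libraries and taking plain isoform ratios, without the 1 added before the log, were added after seeing the data.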

Additional observations from a re-analysis of the deposited data

Results flagged for a closer look

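Effects that differed between groups by their own test (limma interaction terms, log2 scale, adjusted p under 0.05) stood out as follows. The effect of EKO against WT after 22 weeks was larger on WD than on chow by 1.83 for Tcirg1, 1.02 for Atp6v0c, 0.96 for Atp6v1a, 0.86 for Atp6ap2, 0.85 for Atp6v0a1, 0.67 for Atp6v0d1 and 0.64 for Atp6ap1. The effect of EKO against WT on WD was larger after 22 than after 6 weeks by 3.4 for Atp6v0d2, 1.78 for Tcirg1, 1.66 for Atp6v1b2, 1.29 for Atp6v0c, 1.02 for Atp6v1a, 1.02 for Atp6v1h, 0.92 for Atp6v0a1, 0.86 for Atp6ap2 and 0.7 for Atp6v0d1. Those of Atp6v0d2 and Atp6v1b2, and for diet those of Atp6ap1 and Atp6v0a1, were lost when any 1 of several libraries was left out. For diet those of Atp6v0d1, Atp6v0c and Atp6ap2 were each lost without 1 library of EKO after 22 weeks of WD. For human apoA-I in EKO mice on WD, the effect after 22 weeks minus that after 6 weeks was -3.84 for Atp6v0d2, -1.59 for Tcirg1, -1.06 for Atp6v0a1, -0.97 for Atp6ap2, -0.94 for Atp6v1a, -0.93 for Atp6v0c and -0.71 for Atp6ap1. Here the calls of Atp6v0d2, Atp6v0c and Atp6ap1 were lost when any 1 of several libraries was left out, and with the 4 tissue terms only 1 member was called.

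In 8 further cases the ranges were apart in one direction under a contrast in 1 group of mice and apart in the opposite direction in another. Ranges were apart in either direction for 16.9 to 51.6% of all genes in each single contrast concerned. The share of genes apart in opposite directions in both contrasts of a case was not counted. EKO/hA-I after 6 weeks of chow has only 2 libraries, 1 of them nerve-rich. The differences between the contrasts of a case, given as the first group minus the second, were not tested. For WD against chow after 22 weeks, Atp6v0d1 differed by -0.3 in WT and by 0.19 in EKO/hA-I aortas (difference -0.49), and Atp6ap1 by 0.61 in EKO and -0.39 in EKO/hA-I aortas (1.0). For 22 against 6 weeks on WD, Atp6v0d1 differed by -0.31 in WT and 0.094 in EKO/hA-I aortas (-0.4), and Atp6v1h by -0.53 in WT and 0.35 in EKO/hA-I aortas (-0.88). For the same contrast Atp6ap1 differed by -0.26 in EKO on chow, against 0.43 in EKO on WD (-0.69) and 0.14 in EKO/hA-I on chow (-0.4). In EKO/hA-I aortas Atp6v0d1 differed by -0.29 on chow and 0.094 on WD (-0.38), and Atp6v1h by -0.38 on chow and 0.35 on WD (-0.73).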

How the results depend on the processing

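With 3 libraries a group and values near 1 for Atp6v0d2 outside EKO, small differences between members could not be resolved, and marker levels of other tissues varied between libraries. Among single members 3386 values stayed on their side of the threshold under the alternatives, 164 lost a call and 20 gained one, and 0 changed sign while called. The cause was not tested for the changes that follow.

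Fitting the compared groups alone gave 0 called members for EKO against WT after 6 weeks of chow and 0 after 6 weeks of WD, 1 for 22 against 6 weeks in EKO on chow and 2 for the interaction of genotype and diet, with fewer samples behind the spread. It also gave 7 in place of 10 for WD against chow in EKO after 22 weeks, 7 in place of 9 for 22 against 6 weeks in EKO on WD, 8 in place of 9 for EKO/hA-I against EKO after 22 weeks of WD, 3 in place of 4 for EKO/hA-I against EKO after 22 weeks of chow and for WD against chow in EKO/hA-I after 22 weeks, 8 in place of 9 for genotype and duration and 5 in place of 7 for transgene and duration. Rescaling by median ratios, which moved the median of all genes by at most 0.031, gave 2 for WD against chow in EKO/hA-I after 22 weeks. The 4 tissue terms gave 0 for EKO against WT after 6 weeks of chow, 1 for EKO/hA-I against EKO after 22 weeks of chow, 1 for WD against chow in WT after 6 weeks, 0 for WD against chow in EKO/hA-I after 22 weeks and 1 for the interaction of transgene and duration. The sex term gave 2 for EKO against WT after 6 weeks of chow and 2 for EKO/hA-I against EKO after 22 weeks of chow. Leaving out the nerve-rich pair gave 0 for EKO against WT after 6 weeks of chow.

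Leaving out 1 library at a time gave 9 to 10 called members for EKO against WT after 22 weeks of WD and 9 in every case for EKO/hA-I against EKO. The range was 0 to 2 for EKO against WT after 6 weeks of chow and 0 to 2 after 6 weeks of WD, 2 to 3 for EKO/hA-I against EKO after 22 weeks of chow, and 7 to 10 for WD against chow in EKO and 1 to 3 in EKO/hA-I after 22 weeks. For 22 against 6 weeks it was 6 to 10 in EKO on WD, 1 to 3 in EKO on chow and 0 to 1 in EKO/hA-I on chow. The interactions gave 3 to 8 (genotype and diet), 7 to 9 (genotype and duration) and 4 to 7 (transgene and duration). The log2 ratio of Atp6v0d2 to Atp6v0d1 differed by 5.24 to 6.27 for EKO against WT and by -5.29 to -3.93 for EKO/hA-I against EKO after 22 weeks of WD.

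With the replicate number as a block, the number of called members was the same as without it, except for WD against chow in EKO/hA-I after 22 weeks (3 in place of 4, Atp6v0c at adjusted p 0.0543). In EKO/hA-I against EKO after 22 weeks of chow, where the libraries share only a number, Atp6v0d1 lost its call (adjusted p 0.054) and Tcirg1 gained one (adjusted p 0.048). The block changed no other call.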
